A study of Mus musculus with 21 samples.

Results

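Expression of 10 genes of the Wnt pathway was followed from mouse pluripotent stem cells (PSCs) to PSC-derived LSK cells and to LSKCD201+ cells taken from the animal. The genes were the ligands Wnt3, Wnt3a, Wnt5a and Wnt5b, the target genes Axin2 and Sp5, the TCF/LEF factors Lef1, Tcf7l1 and Tcf7l2, and the secreted inhibitor Dkk1. They were found by symbol, and all 10 were listed once in each table, among 27968 genes in the sorted-cell table and among 22899 genes, of which 19321 had values, in the coculture table. The measure was the FPKM of bulk RNA-seq, which scales the reads of a gene by its transcript length and by the size of the library. In bulk RNA, fewer cells of a type and less RNA of a gene per cell cannot be told apart.

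Wnt proteins are lipid-modified secreted ligands. In the canonical branch they bind Frizzled receptors with an LRP coreceptor, beta-catenin escapes degradation, and it enters the nucleus to act with the DNA-binding TCF/LEF factors. Wnt3 and Wnt3a are known as canonical ligands and act in the primitive streak, the region of the embryo where mesoderm forms. Wnt5a and Wnt5b are best known for beta-catenin-independent signalling. Axin2 and Sp5 are widely used readouts of the canonical branch, and Axin2 also feeds back on it as part of the beta-catenin destruction complex. Dkk1 binds the LRP coreceptor and blocks it, and it is itself a target gene.

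The study grew mouse embryonic stem cells in a 3D self-assembling peptide, picked the hematopoietic-like colonies that formed and cultured them for 5 days with SCF, IL-3 and Flt3L, either on mitomycin C-treated OP9 cells, a mouse bone marrow stromal line, or on 0.1% gelatin. Total cells of day 5 on OP9 (3D+OP9) or on gelatin (3D+0.1%gelatin) made up 6 libraries. The other 15 libraries are called sorted libraries, groups or cells below. They came from undifferentiated PSCs (mESC), from the day 5 Lin- Sca-1+ c-kit+ (LSK) cells of the OP9 coculture with or without surface CD201 (D5-LSKCD201+ and D5-LSKCD201-), and from LSKCD201+ cells of C57BL/6 mice, sorted from the bone marrow at 6 to 8 weeks of age (BM-LSKCD201+) or from the fetal liver at E12.5 (FL-LSKCD201+). The methods name no sort marker for the ES cells and kept them on inactivated mouse embryonic fibroblasts with serum and leukemia inhibitory factor. No group carried a gene knockout or a transgene by its labels. By the sample labels all PSC-derived groups had the 129/ola background, although the methods name ES cells from either strain. By these labels, strain and origin cannot be told apart in the comparisons of day 5 cells with FL or BM cells. Each group had 3 libraries. Only FPKM were used, so the sequencing depth is unknown, and no counting error is given for single values.

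The sorted groups were checked against marker lists. The summed FPKM of a hematopoietic list was 1130 to 1280 in BM-LSKCD201+, 1150 to 1310 in FL-LSKCD201+ and 73.2 to 75.2 in D5-LSKCD201+. It was 29.7 to 32.4 in D5-LSKCD201- and 13.0 to 13.9 in mESC. All of its 8 genes had a mean of at least 1 FPKM in BM-LSKCD201+ and FL-LSKCD201+. In D5-LSKCD201+ 4 of the 8 did, in D5-LSKCD201- 6 and in mESC 2. Ptprc, which encodes the leukocyte marker CD45, was at 0.30 to 0.60 FPKM in D5-LSKCD201+ and 0.42 to 0.93 FPKM in D5-LSKCD201-, against 64.3 to 71.6 FPKM in BM-LSKCD201+. An endothelial list summed to 1610 to 1650 in D5-LSKCD201+ and 110 to 116 in D5-LSKCD201-. It was at 405 to 447 in FL-LSKCD201+, 354 to 399 in BM-LSKCD201+ and 56.6 to 60.7 in mESC. A list of 9 primed epiblast and primitive streak genes summed to 261 to 281 in D5-LSKCD201-, where 8 of the 9 had a mean of at least 1 FPKM, to 5.22 to 7.48 in D5-LSKCD201+ and to 15.7 to 19.6 in mESC. A naive pluripotency list was at 724 to 892 in D5-LSKCD201-, against 1330 to 1360 in mESC and 59.3 to 61.4 in D5-LSKCD201+. Hepatocyte markers summed to 353 to 531 in FL-LSKCD201+. A stromal list of 10 genes summed to 94.6 to 100 in D5-LSKCD201+, 73.8, 39.5 and 71.7 in D5-LSKCD201-, 8.24 to 9.72 in mESC, 12.4 to 15.4 in FL-LSKCD201+ and 7.06 to 7.89 in BM-LSKCD201+. A preadipocyte list of 6 genes was at 33.8 to 35.3 in D5-LSKCD201+, 11.4 to 13.1 in D5-LSKCD201-, 4.7 to 5.84 in mESC, 8.18 to 11.8 in FL-LSKCD201+ and 40.3 to 46.9 in BM-LSKCD201+. The day 5 cells had been grown on OP9 stroma. The part of these other cell types in the values below was not tested. D5-LSKCD201- replicate 2 stood apart from its group, with 6.5% of 8922 expressed genes at or under 0.5 times the mean of the other libraries, against 0.549% and 0.235% for replicates 1 and 3. FL-LSKCD201+ replicate 1 (5.29%) and BM-LSKCD201+ replicate 1 (4.64%) also stood apart, and the calls and shares that change most without these libraries are given both ways.

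TCF/LEF factors recognise a short DNA word, CTTTGAT or CTTTGAA, and both strands of the 250 bases before the RefSeq starts of the genes were searched for either of these 7-letter words, which differ in their last letter. They cannot overlap on the same strand, but a match can share end letters with one on the opposite strand. RefSeq windows on GRCm38.p6 were found for 9 of the 10 genes, 15 windows in all, since several genes have more than 1 start. A match was present in 3 of the 15 windows, belonging to Sp5, Wnt5b and Dkk1, against 7.48% of all 32851 promoter windows (3.21% for CTTTGAT and 4.46% for CTTTGAA). The windows of Sp5 and Wnt5b and, for Dkk1, the match with 10 bases on either side are shown because they hold the match, and the window of Axin2 because it is the standard target gene. The Sp5 window lies at chr2:70474673-70474922 on the plus strand, the Dkk1 window at chr19:30549497-30549746 on the minus strand, the Wnt5b window, 1 of 3, at chr6:119449387-119449636 on the minus strand, and the Axin2 window at chr11:108920099-108920348 on the plus strand. Capitals mark the match, and each sequence is written 5′ to 3′ on the strand of its gene.
Sp5: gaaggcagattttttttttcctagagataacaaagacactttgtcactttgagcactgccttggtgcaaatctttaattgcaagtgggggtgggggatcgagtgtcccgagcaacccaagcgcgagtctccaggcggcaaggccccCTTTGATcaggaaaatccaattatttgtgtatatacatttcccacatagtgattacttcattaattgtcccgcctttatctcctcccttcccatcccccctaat
Dkk1: cctcccaaagCTTTGAAatcccatccc
Wnt5b: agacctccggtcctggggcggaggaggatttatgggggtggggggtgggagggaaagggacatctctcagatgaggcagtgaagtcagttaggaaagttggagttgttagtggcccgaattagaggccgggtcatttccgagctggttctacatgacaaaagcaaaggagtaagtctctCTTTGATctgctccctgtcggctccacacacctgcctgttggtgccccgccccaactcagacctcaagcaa
Axin2: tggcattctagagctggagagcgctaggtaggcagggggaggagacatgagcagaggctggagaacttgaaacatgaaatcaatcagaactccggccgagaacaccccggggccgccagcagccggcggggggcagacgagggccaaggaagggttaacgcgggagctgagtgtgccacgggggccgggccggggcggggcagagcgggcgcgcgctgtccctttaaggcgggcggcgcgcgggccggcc
The match lay 104 to 98 bases before the RefSeq start of Sp5, 117 to 111 before that of Dkk1 and 71 to 65 before 1 of the 3 RefSeq starts of Wnt5b. In GENCODE M21 the Sp5 match was upstream of the gene as well. The Dkk1 match (chr19:30549607-30549613) was instead inside the gene, 52 to 58 bases past the start of its 1 transcript and in the UTR. The Wnt5b match (chr6:119449451-119449457) was upstream of 1 of the 4 transcripts and in an intron of the other 3. The Axin2 window held neither word. A match describes the letters and is not evidence of binding.

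Wnt3 lies at chr11:103774150-103817957 on the plus strand of GRCm38 (GENCODE M21, which gives all gene positions here). In sorted cells its FPKM was 0.259, 0.523 and 0.374 in the mESC libraries. It was 4.13, 3.84 and 4.45 in D5-LSKCD201-, while D5-LSKCD201+ had 0.172, 0.388 and 0.304. In FL-LSKCD201+ it had 0.0687 FPKM in replicate 1 and was listed at 0 in the others, and it was listed at 0 in all BM-LSKCD201+ libraries. Every D5-LSKCD201- library was above all 12 other libraries, and mESC and D5-LSKCD201+ overlapped. The 3 genes most like Wnt3 over the 15 sorted libraries were Pga5, Mixl1 and Mesp1 (Pearson's r of log2 values 0.996, 0.996 and 0.994, among 14457 genes compared), the latter a pair of streak and early mesoderm transcription factors. These correlations describe 15 libraries that share 5 groups, and most of the pattern is the single high group.

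Wnt3a (chr11:59248033-59290752, minus strand) had the lowest mean of the 4 ligands in the PSC-derived groups, and like Wnt3 and Wnt5a it was at 0 in BM-LSKCD201+. Its FPKM was 0.155, 0.135 and 0.118 for mESC. Among the day 5 cells it was 0.0189, 0.0711 and 0.0828 with CD201 and 0.926, 0.179 and 0.528 without. It was also listed at 0 in every FL-LSKCD201+ library. The D5-LSKCD201- libraries did not overlap with any other group, but their lowest value, that of replicate 2, was 0.246 times the mean of the others. The gene did not reach the mean of 0.5 FPKM required for a test in any comparison of sorted cells.

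Wnt5a (chr14:28504750-28527448, plus strand) had 1.79, 1.73 and 1.52 FPKM among D5-LSKCD201- libraries, 0.660, 0.753 and 0.611 among D5-LSKCD201+ libraries and 0.446, 0.140 and 0.388 in mESC. It was at 0.127 in FL-LSKCD201+ replicate 1 and listed at 0 in the other FL-LSKCD201+ libraries and in all BM-LSKCD201+ libraries. The order D5-LSKCD201-, D5-LSKCD201+, mESC held without overlap. Plet1, Car14 and Tagln had the patterns most like it (r = 0.986, 0.983 and 0.98). An antisense gene, Gm2670, covers 4.58% of the exon bases of Wnt5a, and whether the reads were counted by strand is not given in the sources used here.

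Wnt5b (chr6:119432531-119544347, minus strand) was the only 1 of the 4 ligands with FPKM above 0 in every library. Its values were 3.27, 2.67 and 3.07 FPKM for D5-LSKCD201-, 0.530, 0.316 and 0.459 for D5-LSKCD201+ and 0.429, 0.248 and 0.260 for mESC. FL-LSKCD201+ libraries had 0.753, 0.815 and 0.671 FPKM and BM-LSKCD201+ libraries 0.618, 0.936 and 1.06. FL-LSKCD201+ and BM-LSKCD201+ overlapped with each other and lay above D5-LSKCD201+, which overlapped with mESC. Its pattern was closest to those of Prokr1, Lgr5 and Cfc1 (r = 0.968, 0.964 and 0.95). Of these, Lgr5 encodes a receptor for R-spondins, secreted proteins that raise Wnt signalling.

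**Figure D1:**
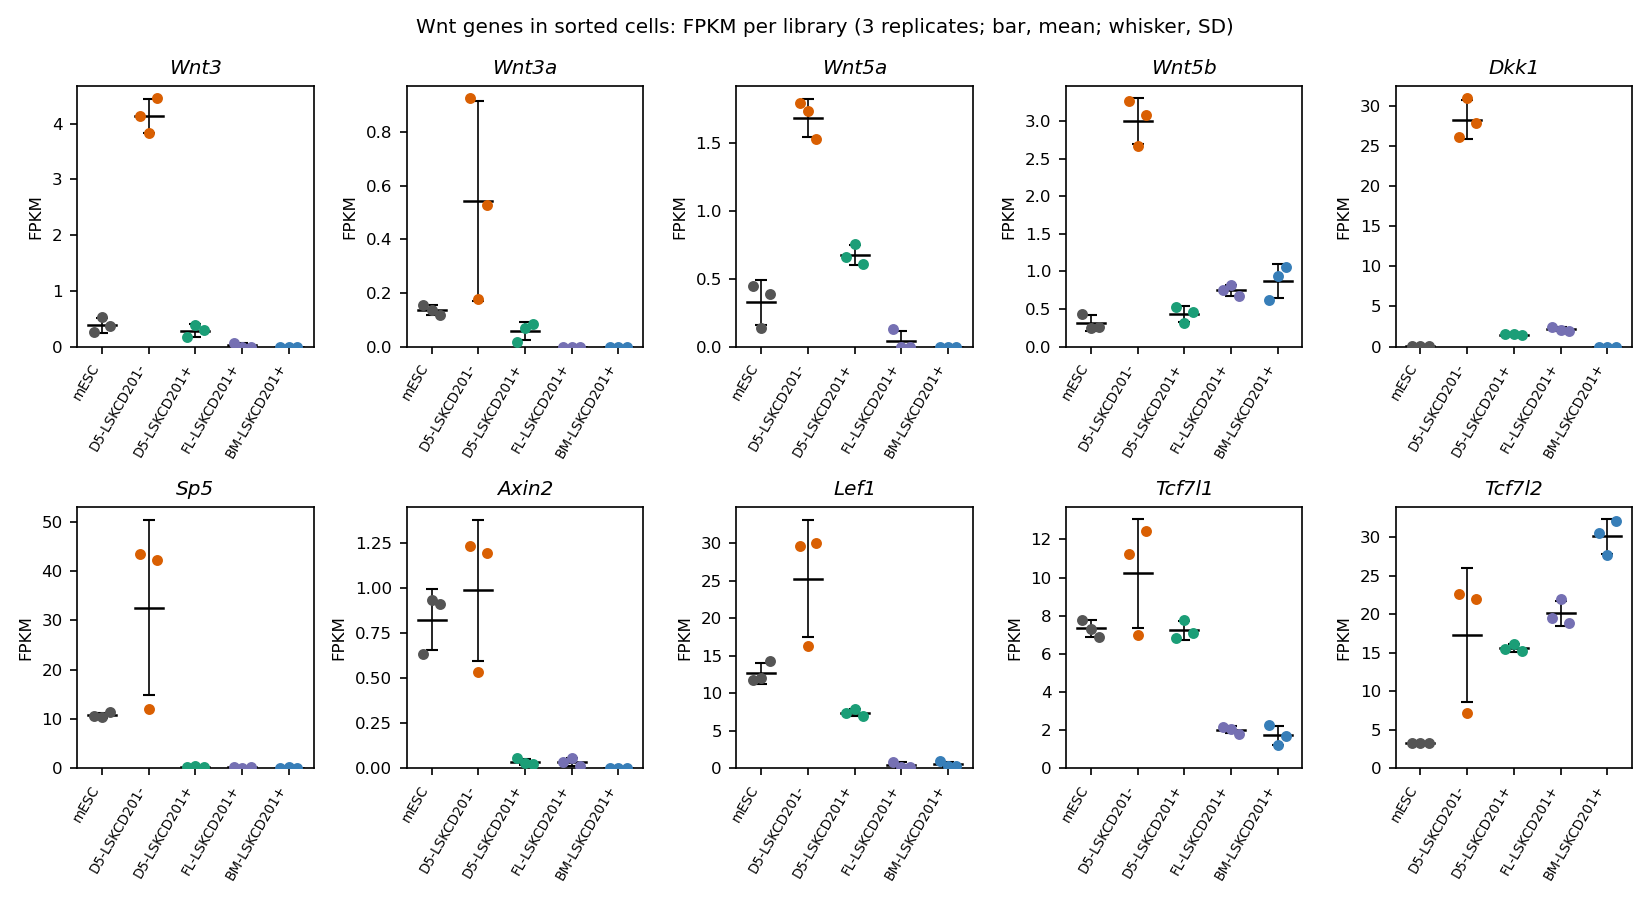
FPKM of the 10 Wnt genes in the 5 sorted groups, with 1 panel per gene and its own vertical axis in FPKM from 0. Points are libraries (3 per group, replicates 1 to 3 from left to right), horizontal bars are means and whiskers are 1 SD; D5-LSKCD201- has the highest mean for 9 genes, and BM-LSKCD201+ for Tcf7l2 (30.1 ± 2.27 FPKM).

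Sp5 (chr2:70474923-70477729, plus strand) encodes a transcription factor of the Sp family. Its FPKM was 10.5, 10.3 and 11.3 in mESC and 43.5, 12 and 42.2 in D5-LSKCD201-. In D5-LSKCD201+ it was 0.143, 0.498 and 0.210. In FL-LSKCD201+ it was 0.195, 0.119 and 0.307, and in BM-LSKCD201+ it was listed at 0 in replicate 1 and had 0.300 and 0.0506 in the others. The 3 CD201+ groups overlapped with each other, and all of their libraries were below all mESC libraries. D5-LSKCD201- replicate 2 was 0.281 times the mean of replicates 1 and 3, close to the mESC level. The genes with the most similar pattern were Ntn1, Esrp2 and Ptpn13 (r = 0.994, 0.993 and 0.991).

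Axin2 (chr11:108920349-108950783, plus strand) was measured at low levels throughout the sorted cells. It had 0.631, 0.932 and 0.912 FPKM in mESC and 1.23, 0.536 and 1.19 in D5-LSKCD201-, and these groups overlapped. In D5-LSKCD201+ it had 0.0540, 0.0277 and 0.0246 FPKM, in FL-LSKCD201+ 0.0356, 0.0566 and 0.0124, and in BM-LSKCD201+ it was listed at 0 in all libraries. Both target genes were therefore low in all 9 CD201+ libraries. The antisense gene Gm11670 covers 3.8% of the exon bases of Axin2.

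Lef1 (chr3:131110471-131224356, plus strand) had 29.6, 16.2 and 30.0 FPKM in D5-LSKCD201-, 11.7, 12 and 14.2 in mESC and 7.35, 7.86 and 7.0 in D5-LSKCD201+. It had 0.879, 0.129 and 0.134 FPKM in FL-LSKCD201+ and 0.924, 0.295 and 0.296 in BM-LSKCD201+. The groups were ordered without overlap down to D5-LSKCD201+, and FL-LSKCD201+ and BM-LSKCD201+ overlapped. Replicate 1 was 6.68 times the mean of the others in FL-LSKCD201+ and 3.13 times in BM-LSKCD201+, and both are libraries that stood apart. Bmp4, Bcat1 and Pkm had the patterns most like Lef1 (r = 0.985 for each). Gm43352, an antisense gene, covers 13.7% of its exon bases.

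Tcf7l1 (chr6:72626378-72789254, minus strand), known in ES cells mainly as a repressor of Wnt target genes, had 7.77, 7.32 and 6.90 FPKM in mESC, 6.82, 7.77 and 7.09 in D5-LSKCD201+, while D5-LSKCD201- had 11.3, 6.98 and 12.4. The 3 groups overlapped. FL-LSKCD201+ had 2.16, 2.06 and 1.80 FPKM and BM-LSKCD201+ 2.24, 1.24 and 1.67, all below every PSC-derived library. Hs3st3b1, Tbx3 and Kifc3 were most like it (r = 0.985, 0.984 and 0.982).

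Tcf7l2 (chr19:55741820-55933654, plus strand) was the only 1 of the 10 genes with its highest mean in BM-LSKCD201+. It had 3.21, 3.31 and 3.31 FPKM in mESC, 15.5, 16.2 and 15.2 in D5-LSKCD201+, while D5-LSKCD201- had 22.7, 7.19 and 22.0. FL-LSKCD201+ had 19.6, 21.9 and 18.9 FPKM and BM-LSKCD201+ 30.6, 27.7 and 32.2. The mESC libraries were the lowest and the BM-LSKCD201+ libraries the highest, without overlap with their neighbours. D5-LSKCD201- spanned both other middle groups with replicate 2 at 0.322 times the mean of the others. The genes most like it were Zc3hav1, Selenoo and Ablim1 (r = 0.962, 0.951 and 0.951).

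Dkk1 (chr19:30545863-30549665, minus strand) had 26.1, 30.9 and 27.8 FPKM in D5-LSKCD201-. It had 2.46, 2.13 and 2.0 in FL-LSKCD201+ and 1.52, 1.51 and 1.40 in D5-LSKCD201+. It had 0.0527, 0.0331 and 0.0686 FPKM in mESC, and in BM-LSKCD201+ it was listed at 0 in replicate 1 and had 0.0133 and 0.0131 in the others. No neighbouring groups overlapped in this order. Its pattern was closest to Dapk2, Parm1 and Tnnc1 (r = 0.973, 0.965 and 0.965). Wnt3a and Axin2 were too low over the 15 libraries (means of 0.148 and 0.376 FPKM) to be compared in this way.

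The question of the CD201 sort was which genes separate the CD201+ from the CD201- part of the day 5 LSK cells. Of the 10 genes, 9 could be tested (limma on log2 of FPKM plus 1, with Benjamini-Hochberg adjustment over all genes tested). A gene is called higher or lower where its adjusted p is under 0.05 and it moved by 1 or more on the log2 scale. In D5-LSKCD201+, 5 genes were lower than in D5-LSKCD201- and none was higher, where 13.9% of all genes tested were called lower and 10.8% higher (1904 and 1475 genes, or 1599 and 1716 with quantile normalization). Wnt3, Wnt5b, Sp5 and Axin2 averaged under 0.5 FPKM in D5-LSKCD201+ and reached the filter through D5-LSKCD201- alone, so they could be tested only as falls. Of the 5 genes at or above that level in both groups, 2 were lower, Lef1 and Dkk1. Sp5 had the largest change (log2 fold change -4.52, SE 0.46, adjusted p = 0.000102, limma), or -5.1 without D5-LSKCD201- replicate 2. Dkk1 fell by 3.56 (SE 0.09, adjusted p = 1.73e-07, limma). Wnt3 fell by 2.0 (SE 0.10, adjusted p = 3.34e-06) and Wnt5b by 1.48 (SE 0.10, adjusted p = 1.55e-05) in the same limma fit. Lef1 fell by 1.59 (SE 0.22, adjusted p = 0.00056, limma), or by 1.87 without D5-LSKCD201- replicate 2.

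Of the others, Axin2 and Wnt5a passed the adjusted p but not the fold threshold, so that 7 of the 9 passed the adjusted p alone, against 68.3% of all genes tested. Axin2 stood at -0.92 (adjusted p = 0.00122, limma) and Wnt5a at -0.68 (adjusted p = 0.000348, limma). Since FPKM plus 1 understates the change of low genes, Axin2 was at -2.93 and Wnt5a at -1.20 with a pseudocount of 0.1. Axin2 was also past both thresholds without D5-LSKCD201- replicate 2 (-1.10). Tcf7l1 did not pass (-0.41, 95% interval -0.87 to 0.04, adjusted p = 0.0953, limma), and without that library it had -0.64 (adjusted p = 0.00021). Tcf7l2 was at 0.01 (95% interval -0.90 to 0.93, adjusted p = 0.978, limma), and without it at -0.49 (adjusted p = 9.54e-05).

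Of 84 other Wnt pathway genes, 61 were tested, 23 were lower in D5-LSKCD201+ and 3 were higher, beside the 13.9% and 10.8% of all genes. Among these calls, 12 of the lower genes were under 0.5 FPKM in D5-LSKCD201+ and could be tested only as falls. Of the 42 genes at or above that level in both groups 11 were lower and 3 higher. The class counts below include the genes tested only as falls. In the class of inhibitors and Kremens 6 of 8 were lower and none higher. The class holds secreted proteins and Kremen1, a membrane receptor for Dkk proteins, which was not among the lower genes (-0.08). The lower ones were led by Sfrp1 (log2 fold change -4.37) and Sfrp5 (-3.88), secreted Frizzled-related proteins that bind Wnt ligands. Among the other target genes 5 of 10 were lower, led by the streak factors Mixl1 (-4.29) and Mesp1 (-3.25), and 1 was higher, Myc (1.29). Sfrp5, Mixl1 and Mesp1 averaged 0.118, 0.464 and 0.258 FPKM in D5-LSKCD201+ and could be tested only as falls. Of the other Wnt ligands, 3 of 5 were lower. Wnt2, Wnt6, Wnt7b and Wnt8a averaged 0.204, 0.0711, 0.0395 and 0.13 FPKM in D5-LSKCD201+ and could be tested only as falls. Wnt11 had 5.66 against 14.8 FPKM. Among the receptors and coreceptors 5 of 15 were lower, and Fzd4, a Frizzled receptor prominent in vascular endothelium, was higher (2.39, 9.02 against 0.912 FPKM). The third gene higher was Rspo3, an R-spondin (1.65, 19.3 against 5.46 FPKM). In its class 2 of 4 genes were lower, the R-spondin receptors Lgr4 and Lgr5 (-1.55 for each). Lgr5 averaged 0.197 FPKM in D5-LSKCD201+ and could be tested only as a fall. Of the 2 secretion genes, Porcn, the enzyme that attaches the lipid to Wnt ligands, was lower (-2.92). Of the 17 signal transduction genes tested, 1 was lower and none higher. The summed streak markers above were lower in D5-LSKCD201+ alongside these genes, and the list of target genes shares T, Mixl1 and Mesp1 with the streak list. The part of that cell type in these calls was not tested.

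**Figure D2:**
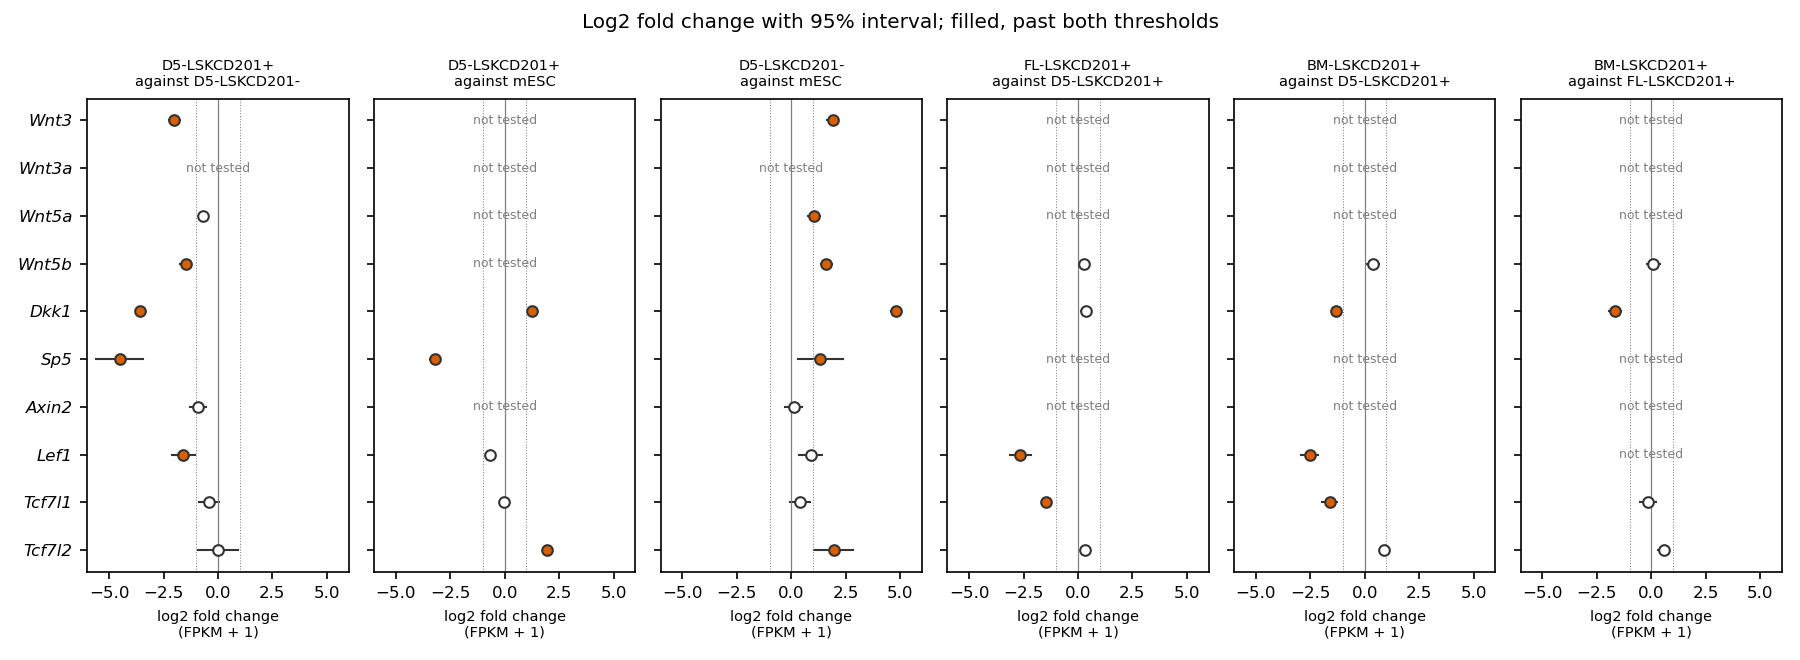
Log2 fold change of FPKM plus 1 for the 10 genes in the 6 comparisons of sorted groups, on a horizontal axis from -6 to 6. Points are limma estimates, lines are 95% intervals, filled points passed an adjusted p of 0.05 and an absolute change of 1, and dotted lines mark a change of 1; Sp5 shows the largest fall in D5-LSKCD201+ (-4.52) and Dkk1 the largest rise in D5-LSKCD201- (4.80 against mESC).

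Against mESC, the comparison that follows differentiation, 9 genes could be tested in D5-LSKCD201-. There, 6 were higher and none lower, where 10.9% of all genes tested were called higher and 3.48% lower (1476 and 473 genes, or 1104 and 741 with quantile normalization). Wnt3, Wnt5a, Wnt5b and Dkk1 averaged under 0.5 FPKM in mESC and reached the filter through D5-LSKCD201- alone, so they could be tested only as rises. Of the other 5 genes, 2 were higher, Sp5 and Tcf7l2. Dkk1 rose by 4.80 (SE 0.10, adjusted p = 2.06e-07, limma). Wnt3 rose by 1.89 (adjusted p = 1.06e-05), Wnt5b by 1.61 (adjusted p = 1.97e-05) and Wnt5a by 1.02 (adjusted p = 0.000295) in the same limma fit. Tcf7l2 rose by 1.94 (SE 0.38, adjusted p = 0.00414, limma), or by 2.45 without D5-LSKCD201- replicate 2. Sp5 rose by 1.32 (SE 0.44, adjusted p = 0.0375, limma), and by 1.91 (adjusted p = 7.04e-08) without D5-LSKCD201- replicate 2. Its call was lost without replicate 1 or 3 of D5-LSKCD201- (adjusted p = 0.11 and 0.104, limma) and without any 1 of the mESC libraries (adjusted p = 0.0875 to 0.0986, limma). The mESC values were close to each other, and each of these fits had 1 library fewer, so the call is a weak one. The call of Wnt5a was lost by its fold without D5-LSKCD201- replicate 1 (0.99) or mESC replicate 2 (0.92). Lef1 stood at 0.90 (adjusted p = 0.0121, limma), Axin2 at 0.11 (adjusted p = 0.609) and Tcf7l1 at 0.40 (adjusted p = 0.119). By the adjusted p alone 7 of 9 passed, against 54.6% of all genes tested, and Lef1 passed both thresholds without D5-LSKCD201- replicate 2 (1.18).

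In the rest of the pathway, 18 of 60 genes tested were higher in D5-LSKCD201- than in mESC and 3 were lower, beside the 10.9% and 3.48% of all genes. Of the higher genes, 9 were under 0.5 FPKM in mESC, and of the 48 genes at or above that level in both groups 9 were higher and 3 lower. Frzb, another secreted Frizzled-related protein, rose by 4.76 (27.4 against 0.05 FPKM) and could be tested only as a rise. Mixl1 rose by 4.0, Wls, the carrier that brings Wnt ligands to the cell surface, by 3.68, and the ligand Wnt11 by 3.24. Tle4, a corepressor that binds TCF/LEF factors, fell by 1.44, Myc fell by 1.17 and Fzd9, a Frizzled receptor, fell by 1.04. The higher genes were 3 of 5 ligands, 1 of 2 secretion genes, 2 of 14 receptors and coreceptors, 2 of 5 R-spondins and their receptors, 4 of 8 inhibitors and Kremens and 6 of 9 other target genes, and no signal transduction gene of 17. These counts include the 9 genes under 0.5 FPKM in mESC. In the same libraries the streak list was higher than in mESC, as given above, and its part in the counts was not tested.

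**Figure D3:**
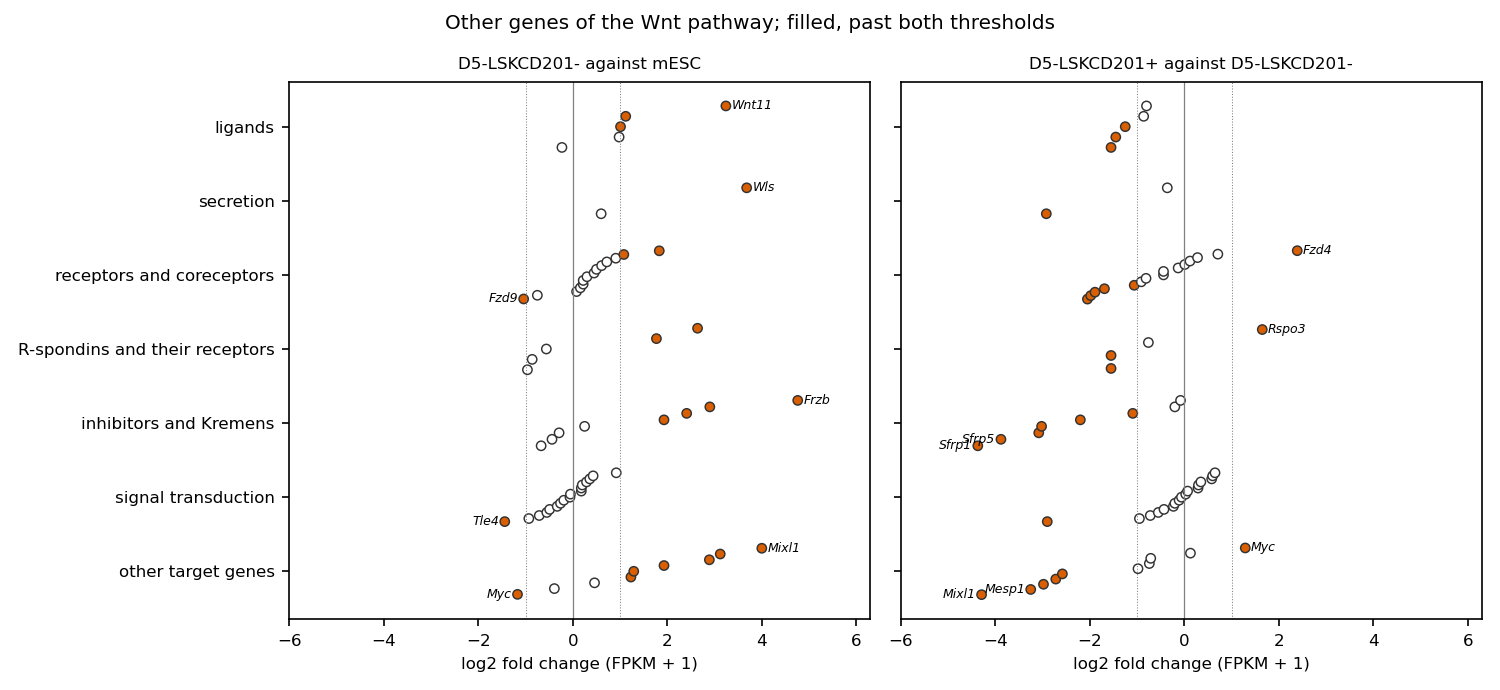
Log2 fold change of FPKM plus 1 for the tested genes of the 84-gene Wnt pathway list, grouped by role, in D5-LSKCD201- against mESC (left, 60 genes) and D5-LSKCD201+ against D5-LSKCD201- (right, 61 genes). Each point is a gene, filled where it passed both thresholds, and the leading called genes are labelled. Filled points are mostly to the right of 0 on the left (18 of 21) and to the left of 0 on the right (23 of 26). Of these, 9 rises on the left and 12 falls on the right were under 0.5 FPKM in 1 group and could be tested only in that direction. Of all genes tested, 10.9% were called higher and 3.48% lower on the left, and 10.8% and 13.9% on the right.

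In D5-LSKCD201+ against mESC, 5 genes were tested, since the ligands and Axin2 were below 0.5 FPKM on average. Dkk1 reached that level only in D5-LSKCD201+ and Sp5 only in mESC. Tcf7l2 rose by 1.96 (SE 0.06, adjusted p = 3.96e-09, limma) and Dkk1 by 1.24 (SE 0.07, adjusted p = 2.76e-07, limma), where 19.5% of all genes tested were called higher. Sp5 fell by 3.20 (SE 0.11, adjusted p = 7.68e-09, limma), where 18.1% were called lower. Lef1 had -0.69 (adjusted p = 4.13e-05, limma), under the fold threshold, and Tcf7l1 -0.02 (95% interval -0.19 to 0.15, adjusted p = 0.821). By the adjusted p alone 4 of 5 passed, against 85.5% of all genes tested. Of the other pathway genes 7 of 54 were higher and 22 lower, beside the 19.5% and 18.1% of all genes. Among these calls, 4 of the higher and 8 of the lower genes were under 0.5 FPKM in 1 group and could be tested in that direction only. Of the 38 genes at or above that level in both groups 3 were higher and 14 lower. The higher genes were led by Rspo3 (4.29), Wls (3.32), Fzd4 (2.89) and Dkk3 (2.20), a Dickkopf family member. The 22 lower genes were led by Notum, an enzyme that inactivates Wnt ligands (-3.37, 0.460 against 13.9 FPKM). Next came Sfrp2 (-2.87), the TCF/LEF factor Tcf7 (-2.71) and Fzd5 (-2.64). Rspo3 and Fzd4 averaged under 0.5 FPKM in mESC and could be tested only as rises. Notum and Fzd5 averaged under it in D5-LSKCD201+ and could be tested only as falls. The comparisons among D5-LSKCD201+, D5-LSKCD201- and mESC share libraries, so they are given side by side and not as independent results.

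The PSC-derived D5-LSKCD201+ cells were then compared with their counterparts of the animal. In FL-LSKCD201+, 2 of 5 genes tested were lower, where 15.1% of all genes tested were called lower, and none was higher, where 19.6% were (2054 and 2673 genes, or 2314 and 2296 with quantile normalization). Lef1 fell by 2.65 (SE 0.21, adjusted p = 2.81e-05, limma), or by 2.89 without FL-LSKCD201+ replicate 1, and Tcf7l1 fell by 1.45 (SE 0.09, adjusted p = 1.02e-05). Wnt5b (0.29, adjusted p = 0.0268), Tcf7l2 (0.34, adjusted p = 0.00727) and Dkk1 (0.37, adjusted p = 0.00888) passed the adjusted p of limma but were under the fold threshold, so that all 5 passed it, against 72.1% of all genes tested. In BM-LSKCD201+, 3 of 5 genes were lower than in D5-LSKCD201+, where 17.5% of all genes were called lower, and none was higher, where 27.2% were (2406 and 3753 genes, or 2890 and 3007 with quantile normalization). Lef1 fell by 2.51 (adjusted p = 4.15e-06, and by 2.7 without BM-LSKCD201+ replicate 1), Tcf7l1 by 1.61 (adjusted p = 2.2e-05) and Dkk1 by 1.3 (adjusted p = 2.61e-06) in the limma fit. Tcf7l2 was at 0.90 (SE 0.07, adjusted p = 9.55e-06, limma), just under the fold threshold, and Wnt5b at 0.38 (adjusted p = 0.02), so that all 5 passed the adjusted p alone, against 83.4% of all genes tested. Dkk1 in BM-LSKCD201+ and Lef1 in FL-LSKCD201+ were under 0.5 FPKM, so they could be tested there only as falls. Wnt5b averaged under 0.5 FPKM in D5-LSKCD201+ and could be tested in both comparisons only as a rise. Both comparisons use the same D5-LSKCD201+ libraries. The bone marrow and fetal liver cells differed in 1 of 4 genes tested, Dkk1, which fell by 1.66 in BM-LSKCD201+ (SE 0.12, adjusted p = 3.46e-05, limma without a replicate block), where 7.78% of all genes tested were called lower and 11.3% higher (1050 and 1531 genes, or 1211 and 1245 with quantile normalization). Dkk1 was under 0.5 FPKM in BM-LSKCD201+ and could be tested only as a fall. Tcf7l2 had 0.56 (adjusted p = 0.00269), Wnt5b 0.09 (95% interval -0.22 to 0.41) and Tcf7l1 -0.16 (95% interval -0.54 to 0.22), and 2 of the 4 passed the adjusted p alone, against 55.1% of all genes tested.

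Among the other pathway genes, 8 of 44 were higher and 7 lower in FL-LSKCD201+ than in D5-LSKCD201+, and 12 of 43 were higher and 10 lower in BM-LSKCD201+. These shares lie near those of all genes, 19.6% higher and 15.1% lower in FL-LSKCD201+ and 27.2% and 17.5% in BM-LSKCD201+, so the counts are not a result about the pathway, and the genes are given for their own values. The Frizzled receptor Fzd9 (3.10 in FL-LSKCD201+ and 2.66 in BM-LSKCD201+) was higher in both. So were Axin1, the scaffold of the destruction complex (2.05 and 3.19), and Tle5, a short member of the Groucho family (2.30 and 2.59). Lrp6, a coreceptor, was also higher in both (1.72 and 1.88). Tle2, a Groucho corepressor, was higher in BM-LSKCD201+ (2.69) and had -0.11 in FL-LSKCD201+ (adjusted p = 0.404, limma). Rspo3 (-4.30 and -4.33), Dkk3 (-3.05 and -3.14) and Wnt11 (-2.41 and -2.65) were lower in both. Fzd1 was lower in both as well (-2.16 and -1.93). Rspo3, Dkk3 and Wnt11 averaged under 0.5 FPKM in FL-LSKCD201+ and BM-LSKCD201+, and Fzd1 in FL-LSKCD201+. They could be tested there only as falls. In FL-LSKCD201+, 5 of the lower and 2 of the higher genes were under that level in 1 group, and in BM-LSKCD201+ 6 and 1 were. Of the 34 genes at or above it in both groups, 6 were higher and 2 lower in FL-LSKCD201+. In BM-LSKCD201+ these were 11 and 4 of 32. Ccnd1, which encodes cyclin D1, fell by 1.94 in BM-LSKCD201+ and had -0.31 in FL-LSKCD201+ (adjusted p = 0.0653, limma). Between BM-LSKCD201+ and FL-LSKCD201+, 3 of 39 genes were higher in BM-LSKCD201+, Tle2 (2.80), Fzd6 (1.16) and Axin1 (1.14), and 2 were lower, Ccnd1 (-1.63) and Wnt6 (-1.31), beside the 11.3% and 7.78% of all genes. Wnt6 averaged 0.39 FPKM in BM-LSKCD201+, under the filter, and could be tested only as a fall.

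The groups differed in the share that each of the 4 TCF/LEF genes had of the family's RNA. Their shares were taken of the summed FPKM of Tcf7, Lef1, Tcf7l1 and Tcf7l2, a scale per transcript length. Tcf7l2 made up 7.87% ± 0.327 (SD, n = 3) in mESC, 22.0% ± 4.95 in D5-LSKCD201-, 48.4% ± 1.41 in D5-LSKCD201+, 85.5% ± 4.71 in FL-LSKCD201+ and 92.2% ± 1.78 in BM-LSKCD201+. These ranges did not overlap between any of the groups. Tcf7 had its highest share in mESC, with 44.2% ± 0.272 in mESC, 29.7% ± 1.63 in D5-LSKCD201-, 6.19% ± 1.75 in D5-LSKCD201+, 4.44% ± 2.69 in FL-LSKCD201+ and 1.02% ± 0.511 in BM-LSKCD201+. The D5-LSKCD201+ range (4.2% to 7.49%) lay inside that of FL-LSKCD201+ (2.66% to 7.53%). Lef1 made up 30.3% in mESC, 34.3% in D5-LSKCD201-, 23.0% in D5-LSKCD201+ and 1.58% and 1.53% in FL-LSKCD201+ and BM-LSKCD201+. Without replicate 1 of these groups, the library that stood apart in each, Lef1 was at 0.573% in FL-LSKCD201+ and 0.925% in BM-LSKCD201+, Tcf7 at 2.89% and 1.31%, and Tcf7l2 at 88.2% and 93.3%. Without D5-LSKCD201- replicate 2, that group had 24.9% for Tcf7l2, 33.1% for Lef1 and 28.9% for Tcf7. The family's summed FPKM was 41.7 ± 2.05 in mESC, 74.6 ± 26.4 in D5-LSKCD201-, 32.3 ± 1.68 in D5-LSKCD201+, 23.6 ± 1.92 in FL-LSKCD201+ and 32.7 ± 2.71 in BM-LSKCD201+. D5-LSKCD201- replicate 2 had the lowest sum of its group (44.2) and the lowest Tcf7l2 share (16.3%). Leaving out libraries for the shares was chosen after seeing the data. The shares were not tested. The smallest two-sided p that an exact permutation test can give for 3 libraries against 3 is 0.1.

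**Figure D4:**
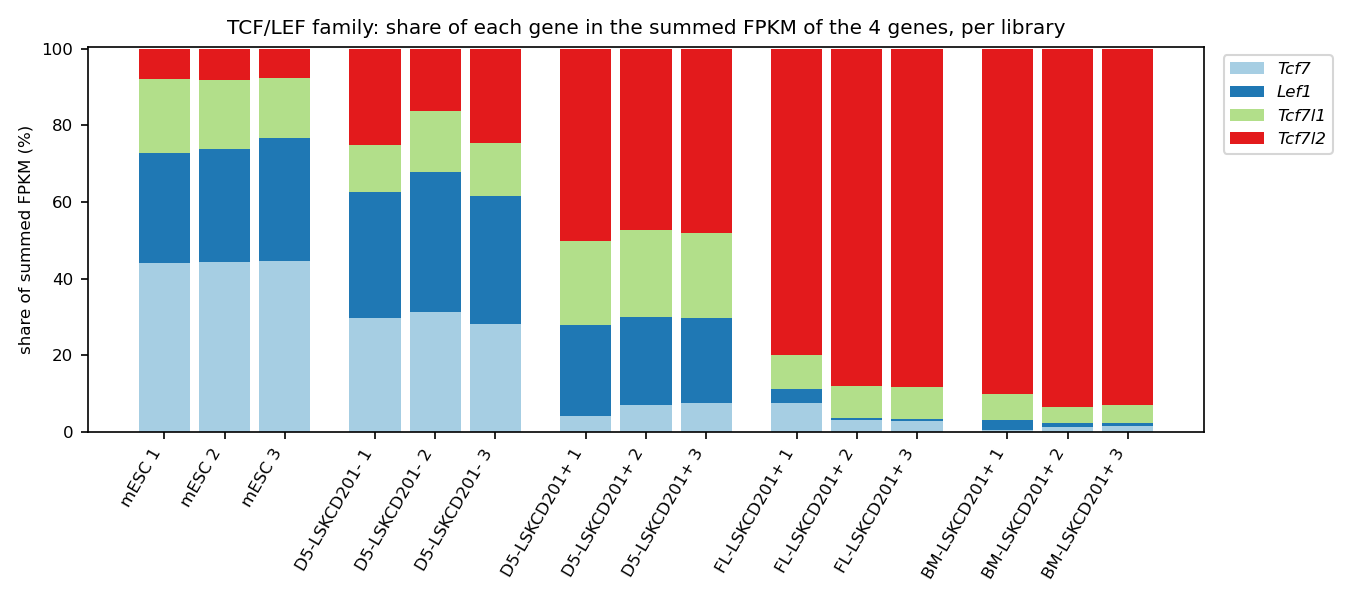
Share (%) of Tcf7, Lef1, Tcf7l1 and Tcf7l2 in their summed FPKM, stacked to 100% for each of the 15 sorted libraries, labelled by group and replicate. The Tcf7l2 share is 7.52% to 8.17% in mESC, 47.4% to 50.0% in D5-LSKCD201+ and 90.2% to 93.6% in BM-LSKCD201+.

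Total day 5 cells were compared to ask how expression differed between culture on OP9 and on gelatin. Whether OP9 cells were removed from the total cells is not given in the sources used here. RNA of OP9 cells, a mouse line, cannot be told apart from that of PSC-derived cells in these libraries. This table was normalized separately, so its levels are not set against those of the sorted cells. None of the 10 genes was called in 3D+OP9 against 3D+0.1%gelatin with limma, where 2.62% of all genes tested were called, and 3 had an unadjusted p under 0.05, as did 22.9% of all genes tested. Tcf7l2 had 5.26, 5.42 and 5.18 FPKM in 3D+OP9 and 6.88, 8.18 and 8.10 on gelatin (log2 fold change -0.47, SE 0.11, adjusted p = 0.0443, limma). Tcf7l1 had 54.04, 51.61 and 64.90 against 77.78, 71.55 and 78.76 (log2 fold change -0.42, SE 0.10, adjusted p = 0.0499, limma). These groups did not overlap. By the adjusted p alone these 2 of 10 genes passed, where 6.88% of all genes did. With the replicate number as a block, 3 genes passed it, Wnt5b (adjusted p = 0.0194, limma), Tcf7l1 (0.0332) and Axin2 (0.0444), and Tcf7l2 did not (0.0589). Both passes were lost without 3D+OP9 replicate 1 or 2 or 3D+0.1%gelatin replicate 2 or 3, with no filter and with the closest pair of libraries averaged, and over all alternatives the adjusted p (limma) ranged from 0.00582 to 0.178 for Tcf7l1 and from 0.0242 to 0.185 for Tcf7l2. Wnt5b had 4.55, 4.51 and 3.03 FPKM against 8.11, 7.65 and 5.36, also without overlap (-0.67, SE 0.19, adjusted p = 0.083, limma). The groups thus did not overlap in 3 of the 10 genes, where 28.7% of all genes tested did not.

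The remaining genes overlapped between the coculture groups. Wnt3 had 14.30, 14.11 and 4.86 FPKM in 3D+OP9 and 16.89, 18.03 and 13.51 in 3D+0.1%gelatin (log2 fold change -0.62, 95% interval -1.45 to 0.21). Wnt3a had 1.55, 1.12 and 0.11 against 0.94, 0.52 and 0.35 (0.20, -0.52 to 0.92), and Wnt5a 8.98, 9.09 and 11.20 against 12.95, 9.92 and 9.63 (-0.13, -0.46 to 0.20). Lef1 was nearly level across the 6 libraries, with 29.82, 31.25 and 24.94 against 30.41, 33.38 and 27.50 (-0.09, -0.35 to 0.18). Axin2 had 24.36, 23.76 and 8.73 against 38.61, 28.44 and 14.00 (-0.51, -1.57 to 0.56, adjusted p = 0.563 with limma). Sp5 had 30.41, 28.30 and 4.32 against 43.11, 24.10 and 10.41 (-0.46, -2.19 to 1.28), and Dkk1 5.32, 5.50 and 1.56 against 10.32, 3.94 and 2.34 (-0.28, -1.46 to 0.91). The intervals of Sp5, Dkk1, Axin2, Wnt3 and Wnt5b (-1.12 to -0.23) reach past a log2 change of 1 in size, so they do not exclude a change of that size.

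Replicate 3 was the lowest library of its group for several of these genes. In 3D+OP9 it stood at 0.0824 times the mean of the other libraries for Wnt3a, 0.147 for Sp5, 0.288 for Dkk1, 0.342 for Wnt3 and 0.363 for Axin2. In 3D+0.1%gelatin it stood at 0.31 for Sp5, 0.328 for Dkk1, 0.418 for Axin2 and 0.479 for Wnt3a. Of 8362 expressed genes, 1.46% were at or under 0.5 times in 3D+OP9 replicate 3 and 0.514% in 3D+0.1%gelatin replicate 3. At or over 2 times were 2.0% in 3D+OP9 replicate 3, against 0% and 0.0239% in replicates 1 and 2, and 0.706%, 0.0359% and 0.311% in replicates 1 to 3 on gelatin. The streak list was lowest in the same libraries, with sums of 353, 332 and 175 in 3D+OP9 and 464, 470 and 303 in 3D+0.1%gelatin. The naive pluripotency list was highest in 3D+OP9 replicate 3 (705, 693 and 1020) and lay at 913, 970 and 902 on gelatin. Hepatocyte markers were highest in 3D+0.1%gelatin replicate 3 (1.44, 0.68 and 18.1), against 1.77, 2.11 and 0.85 in 3D+OP9. The part of these lists in the values was not tested. Without 3D+OP9 replicate 3, Wnt3 was at -0.16 and Axin2 at -0.05, and Sp5 (0.38), Dkk1 (0.17) and Lef1 (0.01) turned to the other side of 0, none of them called.

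**Figure D5:**
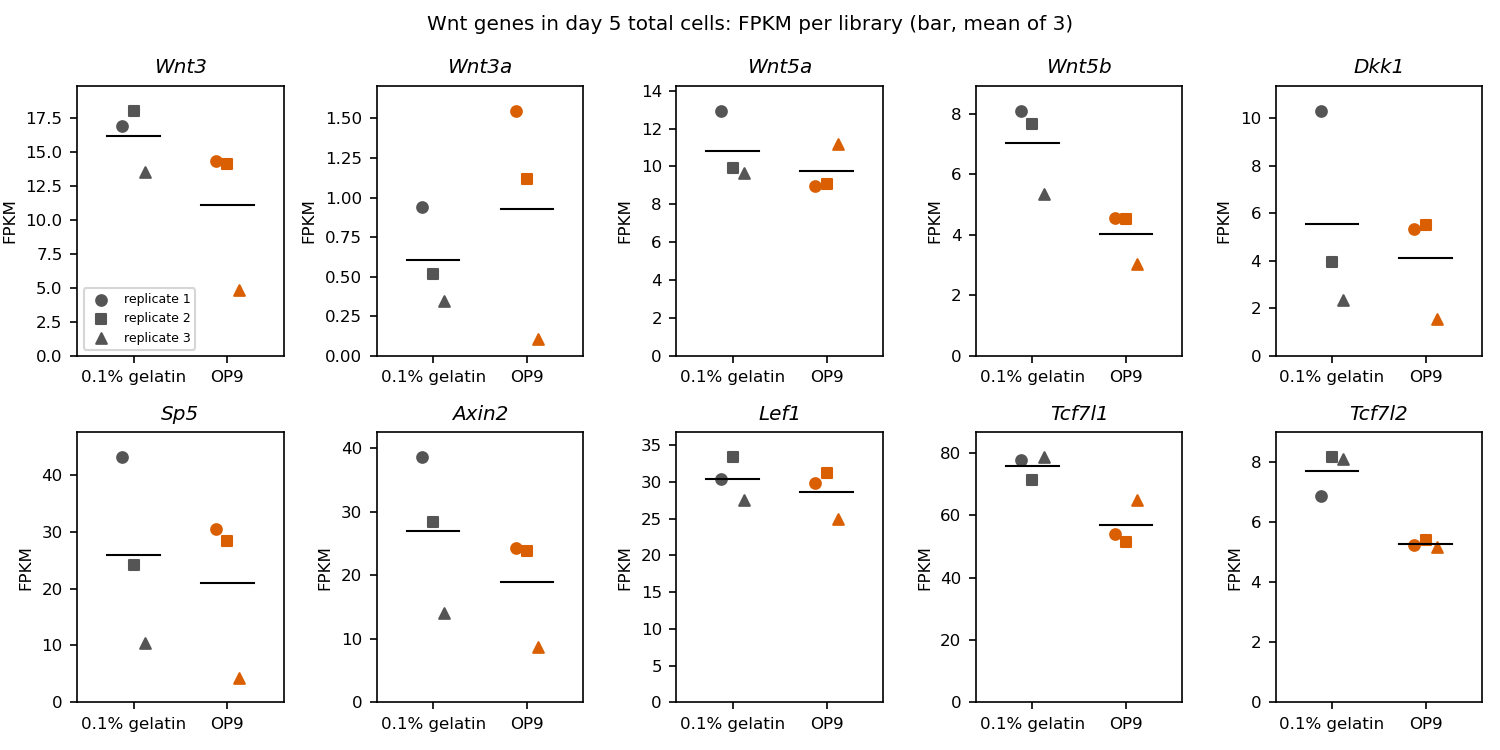
FPKM of the 10 genes in day 5 total cells on 0.1% gelatin (left of each panel) and on OP9 (right), with 1 panel per gene and its own vertical axis in FPKM from 0. Symbols are libraries by replicate number and bars are means of 3; replicate 3 (triangles) is the lowest of both groups for Sp5 (4.32 and 10.41), and the groups separate for Wnt5b, Tcf7l1 and Tcf7l2.

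Of the 84 other pathway genes, 68 were tested in total cells, 1 was higher and 1 was lower in 3D+OP9, a share near the 2.62% of all genes. Dkk3 was higher, with 2.79 ± 0.774 against 0.737 ± 0.170 FPKM (SD, n = 3; log2 fold change 1.11, adjusted p = 0.0102, limma), and its call was lost without 3D+OP9 replicate 3 (0.95) or 3D+0.1%gelatin replicate 2 (adjusted p = 0.0617). Wnt6, a ligand, was lower, with 0.480 ± 0.245 against 4.64 ± 1.52 FPKM (-1.91, adjusted p = 0.00315, limma). It averaged under 0.5 FPKM in 3D+OP9 and reached the filter through 3D+0.1%gelatin alone, so it could be tested only as a fall. The groups did not overlap for either gene. The summed levels of 4 marker lists were also higher in 3D+OP9 than on gelatin. They were 119 to 143 against 27.6 to 40.9 for the endothelial list, 24.4 to 31.9 against 11 to 12.1 for the hematopoietic list, 74.3 to 85.5 against 44.8 to 55.8 for the stromal list and 6.87 to 9.79 against 3.21 to 5.04 for the preadipocyte list. A further list, of 3 markers used in the sort, was higher as well (18.3 to 25.3 against 7 to 9.92). Their part in these values was not tested.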

How the data were processed

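The authors deposited FPKM per gene and library in 2 tables, 1 for sorted cells and 1 for coculture. By the study's methods, reads were aligned to GRCm38 with HISAT2 2.0.5, transcripts were quantified with StringTie 1.3.3 and groups were tested with Cuffdiff 1.3.0. The submitters' processing notes also list the build mm9, and which table it belongs to is not given in the sources used here. In the coculture table, 3578 rows blank in all libraries were dropped.

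Groups and replicates came from the sample labels. A pseudocount of 1 was added to every FPKM before the log2. A gene entered a comparison if it averaged 0.5 FPKM or more over the 6 libraries. The test was that of limma 3.58.1 (two-sided, with a trend in the prior variance, R 4.3.3), adjusted by Benjamini-Hochberg over all genes of a comparison, and 7 comparisons were made. Calls required an adjusted p under 0.05 and a change of 1 or more on the log2 scale in either direction. The code was tested on simulated data. Bcl9l had more than 1 row, and the higher was used. The genes studied, the pathway list and the marker lists were chosen with earlier results of these data known.

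Up to 4 called pathway genes per direction were named, ranked by size of change, and for each studied gene with a mean of at least 0.5 FPKM the 3 genes of highest Pearson's r. A gene named outside this rule was chosen after its values were seen. The values reported come from fits without a replicate block. The replicate numbers met the check for pairing only in BM-LSKCD201+ against FL-LSKCD201+, because deviations from the group means correlated there for every number across genes (r = 0.242, 0.202 and 0.159), although the labels do not say that a number marks a shared animal or day. BM-LSKCD201+ replicate 3 correlated more with FL-LSKCD201+ replicate 2 (r = 0.205) than with its own number. The methods call the replicates biological, and the p-values measure the spread between them. In 4 groups 2 libraries lay closest, by the scaled median absolute deviation of their log2 differences. It was 0.0849 for FL-LSKCD201+ 2 and 3 (other pairs 0.406 and 0.391) and 0.0768 for BM-LSKCD201+ 2 and 3 (0.238 and 0.239). For 3D+OP9 1 and 2 it was 0.104 (0.258 and 0.266), and for D5-LSKCD201- 1 and 3 0.101 (0.272 and 0.292). What such a pair shares is not given in the sources used here. The plots were made in Python 3.11.15 and matplotlib 3.10.9. Alternatives are described in the closing section.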

Additional observations from a re-analysis of the deposited data

How the results depend on the processing

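The depth is unknown, since only FPKM were used, and genes below 0.5 FPKM were not tested, so most ligand values in FL-LSKCD201+ and BM-LSKCD201+ are levels without a test. With 3 libraries a group, single libraries moved several values.

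Results were recomputed with a pseudocount of 0.1, with the filter removed or set to a mean of 1 FPKM, quantile normalization, 1 fit over all 5 sorted groups, the replicate number as a block, leaving out each library, and, chosen after seeing the data, averaging the closest pair of libraries in 4 groups. The number of the 10 genes called stayed within 1.5 times of the reported number in each comparison. It ranged from 4 to 7 in D5-LSKCD201- against mESC, where 6 were reported, and was 4 without D5-LSKCD201- replicate 1 or mESC replicate 2. With the filter at a mean of 1 FPKM, Dkk1 was no longer tested in D5-LSKCD201+ against mESC or in BM-LSKCD201+ against D5-LSKCD201+, so 2 of the 3 calls remained in each. In D5-LSKCD201- against mESC, Sp5 lost its call without a filter (adjusted p = 0.0768, limma) and with the closest pair averaged (adjusted p = 0.105), and over all its alternatives its adjusted p ranged as low as 7.04e-08. In the same comparison, Wnt5a lost its call with quantile normalization (0.74), and Axin2 reversed (-0.17), neither being past the thresholds. That normalization moved the median over all genes by over 0.1 in 5 of the 7 comparisons, in D5-LSKCD201- against mESC from 0.0458 to -0.100.

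Over all genes, 339 were called in 3D+OP9 against 3D+0.1%gelatin, 531 with a pseudocount of 0.1 and 209 without 3D+0.1%gelatin replicate 2. The pathway list had 2 genes called in 3D+OP9 against 3D+0.1%gelatin, and 1 to 5 when single libraries were left out (1 without 3D+0.1%gelatin replicate 2 and 5 without 3D+OP9 replicate 3). With a pseudocount of 0.1 it had 23 in place of 15 in FL-LSKCD201+ against D5-LSKCD201+, and 10 in place of 5 in BM-LSKCD201+ against FL-LSKCD201+. The cause was not tested.

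The values that changed sign, none of them called, were the following when single libraries were left out. In 3D+OP9 against 3D+0.1%gelatin, Wnt3a ranged from -0.05 (without 3D+OP9 replicate 1) to 0.55, Sp5 from -0.97 to 0.38, Dkk1 from -0.66 to 0.22 and Lef1 from -0.15 to 0.01. Sp5 was at 0.38, Dkk1 at 0.17 and Lef1 at 0.01 without 3D+OP9 replicate 3, and Sp5 was at 0.00 and Dkk1 at 0.22 without 3D+0.1%gelatin replicate 1. In D5-LSKCD201+ against D5-LSKCD201-, Tcf7l2 was at -0.01 without D5-LSKCD201+ replicate 2 and -0.49 without D5-LSKCD201- replicate 2, the lowest of a range up to 0.28. In D5-LSKCD201+ against mESC, Tcf7l1 ranged from -0.07 to 0.02, the value without replicate 1 of either group.

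With the replicate number as a block, 379 genes in place of 339 were called in 3D+OP9 against 3D+0.1%gelatin, 0 of the 10 genes and 3 of the pathway list. The same-numbered libraries correlated at 0.182, 0.0724 and 0.291, so the check for pairing, over 0.1 for every number, was not met. 3D+OP9 replicate 2 correlated best with 3D+0.1%gelatin replicate 1 (0.167). Replicates 1 and 3 correlated best with their own number, and a shared batch was not tested. The block left 5, 3, 6, 2, 3 and 1 of the 10 genes called in the other comparisons, the reported numbers, and between BM-LSKCD201+ and FL-LSKCD201+ it changed no call of these genes (adjusted p = 0.00055 for Dkk1 and 0.0105 for Tcf7l2, limma with the block).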
